A study of Mus musculus with 8 samples.

Results

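Sgk1, Fkbp5, Tsc22d3, Ddit4 and Cdkn1a are genes whose transcripts respond to glucocorticoids, and Mt1, Mt2 and Mt3 encode metallothioneins. They were described here in the cortex of mice lacking both SHARP1 and SHARP2 (S1/2-/-) and of wildtype (WT) mice. Members were all probe sets annotated to exactly 1 of these 8 symbols. This gave 9 of the 12422 probe sets on the array that were not control probes, and 8 of 8251 named genes. Cdkn1a had 2 probe sets and every other gene had 1. The series held 8 Affymetrix arrays, each from the cortex of 1 mouse. The groups were S1/2-/- at ZT16, S1/2-/- at ZT4, WT at ZT16 and WT at ZT4, with 2 mice in each. ZT is the number of hours after lights on under a cycle of equal light and dark phases, so ZT4 fell in the light phase and ZT16 in the dark phase, when mice are mostly active. All mice were on the C57/bl6 strain according to the labels and 4 months old, and no group was treated. The methods describe males bred from parents heterozygous at both loci. The S1/2-/- mice carried germline null alleles of both genes in all tissues, so cortex was not the only tissue affected. All mice were anesthetized and decapitated, and a block of forebrain was cut with a coronal slicer, so the labelled cortex was a dissected tissue and not a purified cell type.

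SHARP1 and SHARP2 (also called DEC2 and DEC1, gene symbols Bhlhe41 and Bhlhe40) are transcriptional repressors that bind E-box sequences and take part in the molecular clock. Glucocorticoids are released by the adrenal gland in a daily rhythm, which in nocturnal rodents peaks around the onset of the dark phase, and in response to stress. They bind the glucocorticoid receptor, which then binds glucocorticoid response elements and raises the transcription of nearby genes. Fkbp5 is a co-chaperone that lowers the receptor's affinity for hormone, Tsc22d3 (also called GILZ) mediates anti-inflammatory effects, Sgk1 is a kinase that regulates ion channels and transporters, and Ddit4 (also called REDD1) inhibits mTOR complex signalling. Cdkn1a (also called p21) inhibits cyclin-dependent kinases and is a target of p53 as well. Metallothioneins bind zinc and copper. Mt1 and Mt2 are expressed in astrocytes among other cells and are induced by metals, through the factor MTF1 and metal response elements, and by glucocorticoids. Mt3 is a brain form that metals induce little.

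The metallothionein genes lay within 27.7 kb of each other on chromosome 8 of the RefSeq annotation (GRCm38.p6), in the order Mt3, Mt2 and Mt1 and all on the plus strand. Sgk1 and Ddit4 were on chromosome 10, Fkbp5 and Cdkn1a on chromosome 17 and Tsc22d3 on chromosome X. All 8 genes matched the RefSeq table, which gave 16 windows around their annotated transcript starts, 6 of them for Sgk1, 3 for Tsc22d3 and 2 for Cdkn1a. Each window ran from 250 bases before the start to 50 after it. They were searched on both strands for the glucocorticoid response element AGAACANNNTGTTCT, its single site AGAACA, the metal response element cores TGCACNC and TGCGCNC, and the E-box CACGTG. The 4 windows below are shown because they held the full glucocorticoid element, an E-box, or several metal response cores, which are written in capitals.
Sgk1, window 5: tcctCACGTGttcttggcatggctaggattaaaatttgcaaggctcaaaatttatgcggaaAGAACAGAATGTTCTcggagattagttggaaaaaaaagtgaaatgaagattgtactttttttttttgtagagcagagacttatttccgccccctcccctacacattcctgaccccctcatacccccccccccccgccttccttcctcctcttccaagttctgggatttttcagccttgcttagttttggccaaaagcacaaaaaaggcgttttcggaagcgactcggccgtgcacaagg
Fkbp5: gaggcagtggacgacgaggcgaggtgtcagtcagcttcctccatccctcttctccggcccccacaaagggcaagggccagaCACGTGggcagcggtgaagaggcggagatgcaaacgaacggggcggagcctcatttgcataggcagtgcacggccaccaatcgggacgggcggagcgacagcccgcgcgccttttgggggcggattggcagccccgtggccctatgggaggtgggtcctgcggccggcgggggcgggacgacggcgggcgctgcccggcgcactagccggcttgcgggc
Mt1: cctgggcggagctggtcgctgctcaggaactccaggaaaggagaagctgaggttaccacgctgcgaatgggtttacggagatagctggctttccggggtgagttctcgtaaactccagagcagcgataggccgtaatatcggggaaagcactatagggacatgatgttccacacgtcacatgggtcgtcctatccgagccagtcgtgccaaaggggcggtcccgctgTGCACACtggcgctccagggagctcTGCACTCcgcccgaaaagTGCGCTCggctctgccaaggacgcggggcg
Mt2: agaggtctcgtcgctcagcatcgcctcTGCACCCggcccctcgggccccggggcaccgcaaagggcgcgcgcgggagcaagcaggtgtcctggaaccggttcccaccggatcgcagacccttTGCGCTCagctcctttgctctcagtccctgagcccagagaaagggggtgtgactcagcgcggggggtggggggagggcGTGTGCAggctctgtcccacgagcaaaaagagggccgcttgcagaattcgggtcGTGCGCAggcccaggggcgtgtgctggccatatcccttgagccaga

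The Sgk1 window lay at chr10:21993640-21993939 on the plus strand and held the full glucocorticoid element from position -189, counted from the transcript start, and an E-box from position -246. The full element was present in 3 of 32851 windows of the table (0.00913%), the others belonging to Acnat2 and Gm35041. The single site by itself was in 19.0% of windows and the E-box in 7.15%. The single site AGAACA also makes up each end of the full element, and a further copy on the minus strand overlapped the Sgk1 E-box. The Fkbp5 window, at chr17:28486100-28486399 on the minus strand, held an E-box from position -169 and no single site. Sgk1 and Fkbp5 were the only members with an E-box in any of their windows. The Mt1 window (chr8:94178839-94179138) held 3 metal response cores and the Mt2 window (chr8:94172368-94172667) held 4. A window with at least 1 such core made up 25.7% of the table and one with at least 2 made up 7.11%. The Mt3 window (chr8:94152357-94152656), the Ddit4 window and 1 Sgk1 window held 1 core each. A match is a run of letters and not evidence of binding. The windows follow annotated starts, and the probe sets do not tell which start was in use.

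**Figure D1:**
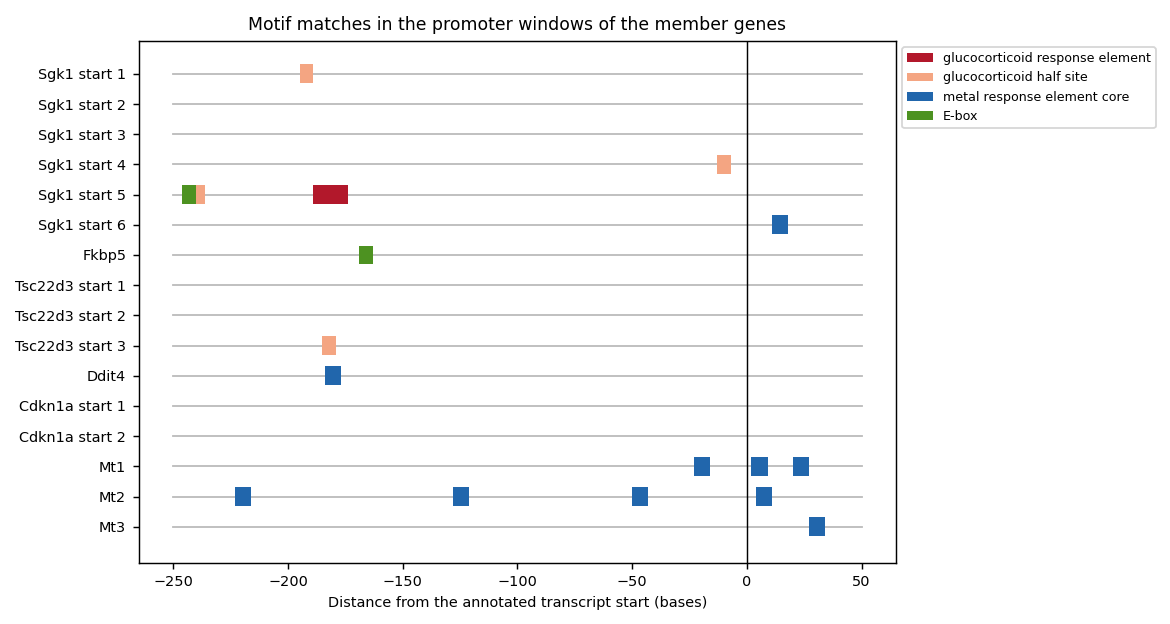
Motif matches in the 16 promoter windows of the member genes. Each row is 1 annotated transcript start, the horizontal axis is the distance from that start in bases, and coloured blocks mark each motif on either strand. The full glucocorticoid response element appears in 1 row only, Sgk1 start 5, and metal response cores appear most often in Mt2 and Mt1.

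Array medians lay between 186 and 206 signal units, and the log2 signals of the 2 mice in a group correlated at r = 0.955 to 0.965 over probe sets. Of all probe sets, 7453 were bright enough to test, including 8 of the 9 member probe sets. The probe set of Tsc22d3 was too dim and was left out of every count of these 7453 probe sets and of the 8 members among them. It was kept in the correlations between member genes and in the plot of log2 fold changes with their intervals. The counts given for these include it. The probe set of Bhlhe40 had signals of 834 to 1043 in the 4 S1/2-/- mice and 983 to 1285 in the 4 WT mice. Its place relative to the deleted part is not known, so it checks no label. Of the markers of neurons and cortex, 5 of 8 listed genes were measured, with summed signals of 48584 to 58618, most of it from Snap25. WT ZT16 replicate 2 had the lowest signal of all 8 arrays for 4 of these 5 markers and the highest for Snap25. Its Camk2a signal was 210, against 610 to 934 on the other arrays, and its Syt1 signal was 3349, against 5089 to 7492. Markers of other tissue were measured too, and their sums differed between groups. The 7 measured choroid plexus markers of 11 listed had summed signals of 1549 and 1589 in S1/2-/- mice at ZT16, between 1972 and 3587 in S1/2-/- mice at ZT4, between 4533 and 4989 in WT mice at ZT16, and between 1505 and 1586 in WT mice at ZT4. Only 2 of the 7 were bright enough to test, Ttr and Igf2. Igf2 made up most of the sums in S1/2-/- mice at ZT16 (1303 and 1323) and in WT mice at ZT4 (1248 and 1045). Ttr had 2582 and 2412 in WT mice at ZT16. The 5 measured striatal markers of 10 listed had summed signals of 4214 to 4675 in WT mice at ZT4 and of 7324 to 14702 on the other 6 arrays. Most of each sum came from Penk. Tac1 and Drd2 were also lowest in both WT mice at ZT4. Pdyn overlapped, with 367 to 460 there and 384 to 532 on the other arrays, and Rgs9 was dim in WT mice at both times (4.55 to 21.7). No measured marker was at 0, but a low signal does not show that a tissue was present. In such whole tissue, fewer cells of a type and less RNA per cell cannot be told apart.

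None of the 8 tested member probe sets was called in any comparison. A call needed more than a 1.5-fold change together with a Benjamini-Hochberg adjusted p under 0.05 in a limma fit over all 7453 probe sets. Few probe sets of any kind passed: 0.0134% in WT mice between ZT16 and ZT4, 0% in S1/2-/- mice between the times, 0% for the difference of the time changes, 0.0939% between genotypes at ZT4, 0.0134% between genotypes at ZT16, 0.255% between genotypes averaged over the times, and 0% between times averaged over genotypes. All comparisons used the same 8 arrays, so those that share a group are not independent of each other. The values that follow are therefore descriptions of single mice, with intervals that mostly include no change.

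**Figure D2:**
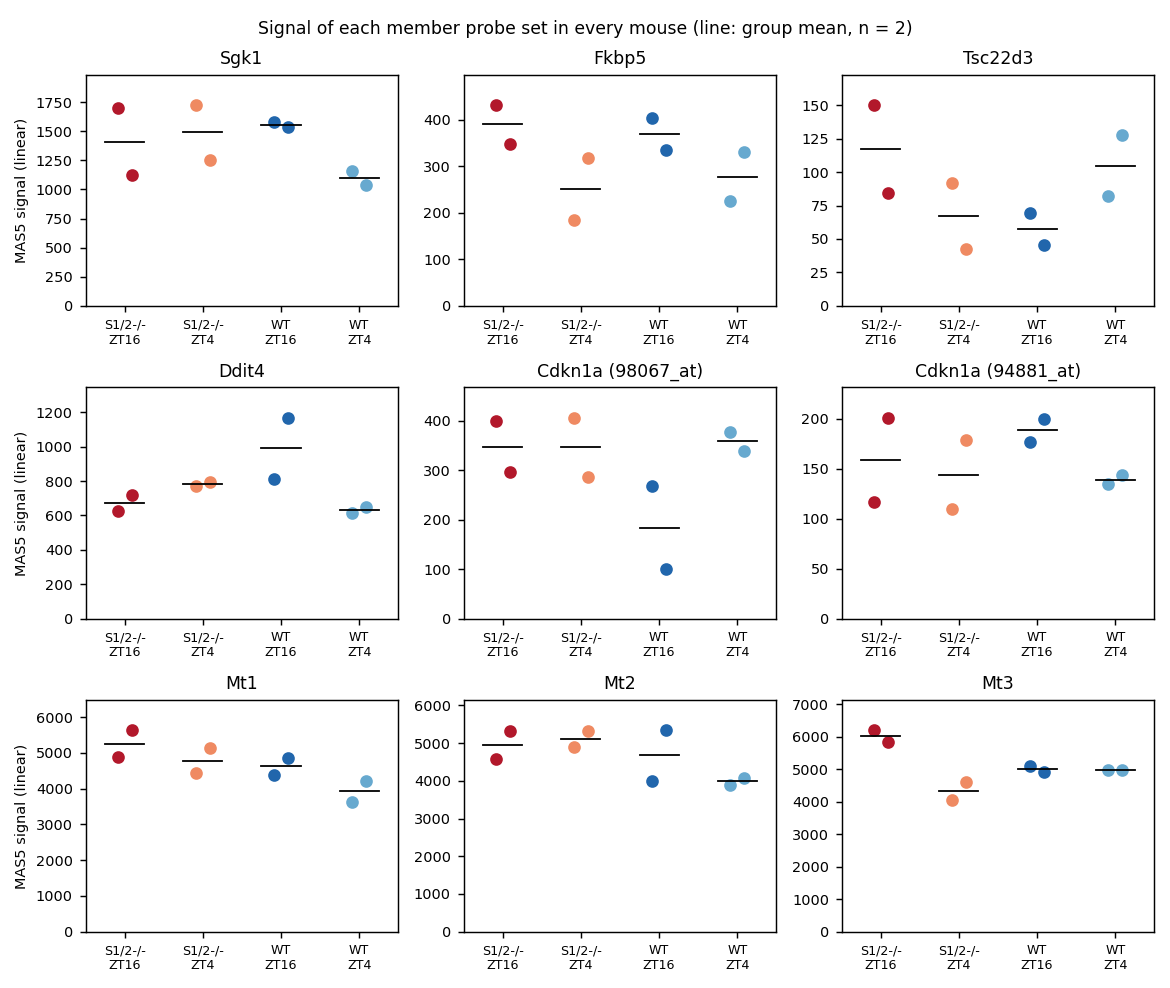
Signal of each member probe set in every mouse. Each panel is 1 probe set, the vertical axis is the deposited MAS5 signal on a linear scale from 0, each point is 1 mouse and each line is the mean of 2 mice. Ddit4 was highest in both WT mice at ZT16, Mt3 was highest in both S1/2-/- mice at ZT16, and the spread within a group was wide for Sgk1, Fkbp5 and Cdkn1a.

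Between ZT16 and ZT4, 3 of the 8 member probe sets in WT mice had an unadjusted p under 0.05, where 7.61% of all tested probe sets did. These were Sgk1 and Ddit4, higher at ZT16, and 1 probe set of Cdkn1a, lower at ZT16. In S1/2-/- mice 2 of 8 did, Fkbp5 and Mt3, both higher at ZT16, against 7.31% of all. The 2 mice at ZT16 did not overlap with the 2 at ZT4 in 6 of 8 member probe sets in WT mice (36% of all) and in 3 of 8 in S1/2-/- mice (41.4% of all). The median log2 fold change of the 8 was 0.07 in S1/2-/- mice and 0.33 in WT mice, while the median of all tested probe sets was 0.00 in both genotypes. The difference of the time changes had an unadjusted p under 0.05 for 2 of 8, Ddit4 and Mt3, against 5.69% of all.

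Among the kinases and regulators of the glucocorticoid response, Sgk1 (probe set 97890_at) had signals of 1703 and 1120 in S1/2-/- mice at ZT16 and of 1728 and 1254 in S1/2-/- mice at ZT4. In WT mice it had 1578 and 1533 at ZT16 and 1160 and 1038 at ZT4. The 2 WT mice at ZT16 were above the 2 at ZT4, whereas the S1/2-/- mice spanned both levels at each time. The log2 fold change between the times was -0.09 ± 0.20 (SE) in S1/2-/- mice and 0.50 ± 0.20 in WT mice, with limma adjusted p of 0.953 and 0.625. At ZT4, Sgk1 differed between S1/2-/- and WT mice by 0.42 on the log2 scale (95% interval -0.03 to 0.88), and at ZT16 by -0.17 (-0.63 to 0.28). The difference of its time changes was -0.59 (-1.24 to 0.05). Oligodendrocyte markers were lowest in the same group as Sgk1. The 8 measured of 11 listed had summed signals of 26041 to 28266 in S1/2-/- mice at ZT16, 28404 to 29580 in S1/2-/- mice at ZT4, 22386 to 22904 in WT mice at ZT16 and 16854 to 18621 in WT mice at ZT4, and their part in the Sgk1 values was not tested.

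Fkbp5 (94297_at) had signals of 433 and 348 in S1/2-/- mice at ZT16 and 184 and 317 in S1/2-/- mice at ZT4. It had 404 and 335 in WT mice at ZT16 and 226 and 330 in WT mice at ZT4. All 4 mice at ZT16 lay above all 4 at ZT4, which no other tested member showed and which 5.06% of all tested probe sets showed in either direction. The log2 fold change was 0.68 ± 0.30 (SE) in S1/2-/- mice and 0.43 ± 0.30 in WT mice. Averaged over genotypes it was 0.56 (95% interval 0.08 to 1.03), with an unadjusted p of 0.0254 and an adjusted p of 0.457 in limma. The lowest ZT16 signal, 335, was close to the highest ZT4 signal, 330. Between genotypes Fkbp5 differed by 0.08 (-0.59 to 0.75) at ZT16 and by -0.18 (-0.85 to 0.49) at ZT4.

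Tsc22d3 (94212_at), which fell under the filter, had signals of 150 and 84.4 in S1/2-/- mice at ZT16, 91.6 and 42.3 in S1/2-/- mice at ZT4, 69.2 and 45.8 in WT mice at ZT16, and 82.0 and 128 in WT mice at ZT4. The order of the times was opposite in the 2 genotypes by group mean, but the S1/2-/- groups overlapped. In a fit without the filter on dim probe sets its log2 fold change between times was 0.86 ± 0.58 (SE) in S1/2-/- mice and -0.86 ± 0.58 in WT mice. The difference of these, 1.72, had a 95% interval of -0.13 to 3.56 and an adjusted p of 0.876 in limma. Its standard error on the log2 scale was the largest of the 9 member probe sets.

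Ddit4 (103460_at) had signals of 623 and 721 in S1/2-/- mice at ZT16 and 770 and 794 in S1/2-/- mice at ZT4. In WT mice it had 814 and 1168 at ZT16 and 614 and 647 at ZT4. Both WT mice at ZT16 were above every other mouse. The groups did not overlap in any of the 4 comparisons of a single time or genotype. Of all tested probe sets, 36% were apart between the times in WT mice and 41.4% in S1/2-/- mice. Between genotypes, 39.4% were apart at ZT4 and 42% at ZT16. The share apart in all 4 was not counted. For Ddit4 the order of the times was opposite in the genotypes. It was lower at ZT16 in S1/2-/- mice, by -0.22 ± 0.18 (SE) on the log2 scale, and higher at ZT16 in WT mice, by 0.63 ± 0.18. The difference of the time changes was -0.85 (95% interval -1.42 to -0.28), with an unadjusted p of 0.00759 and an adjusted p of 0.706 in limma. Between genotypes Ddit4 differed by -0.54 (-0.94 to -0.14) at ZT16 and by 0.31 (-0.09 to 0.71) at ZT4. Without WT ZT16 replicate 1, which leaves the mouse at 1168 alone in its group, Ddit4 was called in WT mice between the times (0.89, adjusted p = 0.0372) and between genotypes at ZT16 (-0.80, adjusted p = 0.0439). With that array left out, 100 and 154 of all tested probe sets were called in these comparisons, against 1 in each with all arrays. Without WT ZT16 replicate 2, the mouse at 1168, these values were 0.37 (adjusted p = 0.901) and -0.28 (adjusted p = 0.767). With any array other than WT ZT16 replicate 1 left out, Ddit4 was not called. Choroid plexus sums were highest in the same 2 WT mice at ZT16, and their part in the Ddit4 values was not tested.

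Cdkn1a was measured by a pair of probe sets with different patterns. For the brighter one by mean signal, 98067_at, the signals were 399 and 297 in S1/2-/- mice at ZT16, 406 and 287 in S1/2-/- mice at ZT4, 267 and 101 in WT mice at ZT16, and 377 and 339 in WT mice at ZT4. The 2 WT mice at ZT16 were the lowest of all 8, and the mouse at 101 was the one with the highest Ddit4 signal. The log2 fold change between times was 0.01 ± 0.40 (SE) in S1/2-/- mice and -1.12 ± 0.40 in WT mice, with adjusted p of 0.999 and 0.625 in limma. At ZT16 the genotypes differed by 1.06 (95% interval 0.17 to 1.95). Here too the call depended on 1 array: without WT ZT16 replicate 1, the probe set was called in WT mice between the times (-1.82, adjusted p = 0.0259) and between genotypes at ZT16 (1.76, adjusted p = 0.0257). Without WT ZT16 replicate 2, the mouse at 101, they were -0.42 (adjusted p = 0.968) and 0.36 (adjusted p = 0.821). That array also stood apart in neuronal markers, as described above, and their part in the Ddit4 and Cdkn1a values was not tested. For the dimmer one, 94881_at, the signals were 117 and 201 in S1/2-/- mice at ZT16, 109 and 178 in S1/2-/- mice at ZT4, 177 and 199 in WT mice at ZT16, and 134 and 144 in WT mice at ZT4. This second probe set was higher in both WT mice at ZT16 than in both at ZT4, by 0.44 ± 0.39, against the direction of the other, so no direction can be given for the gene.

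**Figure D3:**
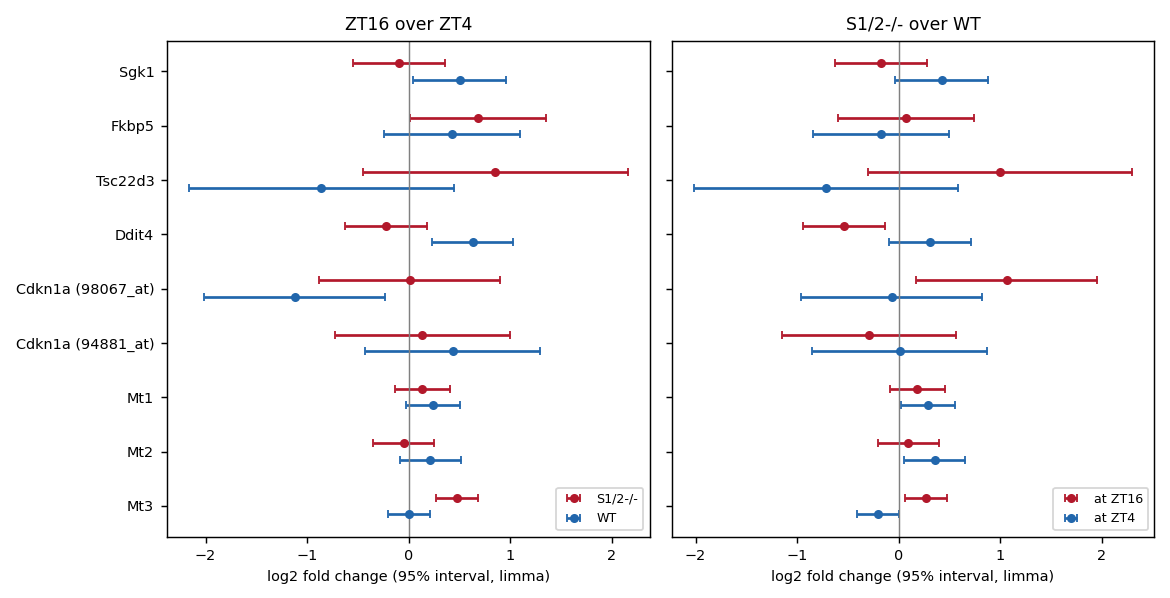
Log2 fold changes of the 9 member probe sets with their 95% intervals from limma. The left panel gives ZT16 over ZT4 in S1/2-/- mice (upper point of each row) and in WT mice (lower point), and the right panel gives S1/2-/- over WT at ZT16 (upper) and at ZT4 (lower). In the right panel 7 of the 9 probe sets have points on opposite sides of 0 at ZT16 and ZT4. The others are Mt1 and Mt2 (with median centring Mt2 at ZT16 is -0.00715). Median centring also turns Fkbp5 at ZT16 and the dimmer Cdkn1a probe set at ZT4 negative, which puts each on the same side at both times. Leaving out an array can turn a sign for Sgk1, Fkbp5, Mt2 and both Cdkn1a probe sets. The share of all tested probe sets with opposite signs was not counted. The interval of Tsc22d3 is the widest.

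Among the metallothioneins, Mt1 (93573_at) had signals of 4895 and 5627 in S1/2-/- mice at ZT16 and 4437 and 5136 in S1/2-/- mice at ZT4, against 4380 and 4865 in WT mice at ZT16 and 3625 and 4223 in WT mice at ZT4. Mt2 (101561_at) had 4588 and 5322 in S1/2-/- mice at ZT16 and 4911 and 5310 in S1/2-/- mice at ZT4, against 4009 and 5338 in WT mice at ZT16 and 3890 and 4088 in WT mice at ZT4. Both genes had their lowest group mean in WT mice at ZT4, with S1/2-/- mice above WT mice at that time without overlap. At ZT16 the genotypes overlapped for Mt2 and were barely separate for Mt1. The log2 difference between S1/2-/- and WT mice at ZT4 was 0.29 ± 0.12 (SE) for Mt1 and 0.36 ± 0.14 for Mt2. Averaged over the times it was 0.24 (95% interval 0.05 to 0.42) for Mt1 and 0.23 (0.01 to 0.44) for Mt2, with adjusted p of 0.307 and 0.374 in limma. These amounted to 1.18-fold and 1.17-fold, below the fold of 1.5 that a call required. Mt1 and Mt2 encode closely related proteins, and how far each probe set reads the other's transcript is uncertain.

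Astrocyte markers were measured beside them, since astrocytes express Mt1 and Mt2. The 9 measured of 11 listed had summed signals of 39585 to 41096 in S1/2-/- mice at ZT16, 39420 to 43160 in S1/2-/- mice at ZT4, 37406 to 42075 in WT mice at ZT16 and 37390 to 38866 in WT mice at ZT4. Of the 9, 7 were higher in S1/2-/- than in WT mice at each time, but not the same 7. Glul was lower at ZT4, Aldoc was lower at ZT16, and Sparcl1 was lower at both times. Averaged over the times, 6 were higher and 3 were lower. Gfap, the intermediate filament of astrocytes, had 1378 and 1150 in S1/2-/- mice at ZT16 and 958 and 1057 in S1/2-/- mice at ZT4, against 510 and 667 in WT mice at ZT16 and 388 and 508 in WT mice at ZT4. Its part in the metallothionein values was not tested.

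Mt3 (95340_at) had signals of 6193 and 5847 in S1/2-/- mice at ZT16 and 4056 and 4610 in S1/2-/- mice at ZT4, against 5090 and 4922 in WT mice at ZT16 and 4991 and 4972 in WT mice at ZT4. The 4 WT mice were nearly level, while the S1/2-/- mice were above all of them at ZT16 and below all of them at ZT4. The log2 fold change between times was 0.48 ± 0.09 (SE) in S1/2-/- mice and 0.01 ± 0.09 in WT mice. In S1/2-/- mice the unadjusted p was 0.000422, rank 6 of 7453, the adjusted p was 0.402 in limma, and the change was 1.39-fold. The difference of the time changes was 0.47 (95% interval 0.18 to 0.76), with an unadjusted p of 0.00484 and an adjusted p of 0.634. Between genotypes Mt3 differed by 0.27 (0.06 to 0.47) at ZT16 and by -0.20 (-0.41 to 0.00) at ZT4. Mt3 did not follow Mt1 or Mt2 in these groups.

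Between genotypes, 3 of 8 member probe sets at ZT16 had an unadjusted p under 0.05 (the brighter Cdkn1a probe set and Mt3 higher and Ddit4 lower in S1/2-/- mice), against 10.9% of all. At ZT4 2 of 8 did, Mt1 and Mt2, both higher in S1/2-/- mice, against 7.29% of all. The groups did not overlap in 4 of 8 at ZT16 (42% of all) and in 5 of 8 at ZT4 (39.4% of all). Averaged over the times, Mt1 and Mt2 again made 2 of 8, against 12.4% of all, and in 0 of 8 were all S1/2-/- mice apart from all WT mice (7.18% of all). Averaged over genotypes, Fkbp5 and Mt3 made 2 of 8 for the times, against 9.38% of all.

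Mt1 and Mt2 varied together over the 8 arrays, with Pearson's r = 0.84 (exact permutation p = 0.00667) and Spearman's rho = 0.79 (exact permutation p = 0.0279). With Benjamini-Hochberg adjustment over the 28 pairs of member genes, the p-values were 0.110 and 0.321. The permutations shuffled the arrays regardless of group. For every pair, r, rho and their p-values thus take in differences between groups as well as between mice of a group. Without the 2 arrays farthest from the median of Mt1, r was 0.78, and for deviations from the group means it was 0.76. Mt3 correlated with Mt1 at r = 0.34 and with Mt2 at r = -0.06. Ddit4 and Cdkn1a (its brighter probe set) ran in opposite directions, with r = -0.91 (exact permutation p = 0.00786, adjusted 0.110) and rho = -0.74 (exact permutation p = 0.0458, adjusted 0.321). Without the 2 arrays farthest from the median of Ddit4, r was -0.57, and for deviations from the group means it was -0.96. With 2 mice in a group their deviations are equal and opposite, so in both gene pairs each group gives only 1 independent value. For Ddit4 and this Cdkn1a probe set, the 2 WT mice at ZT16 lay farthest apart. The dimmer Cdkn1a probe set was left out of the correlations. In WT mice it was, like Ddit4, higher at ZT16 (177 and 199) than at ZT4 (134 and 144). No direction against Ddit4 can therefore be given for the Cdkn1a gene. Of the 28 pairs, 16 had a positive and 12 a negative r, 4 had an unadjusted p under 0.05 and 0 had an adjusted p under 0.05 in the exact permutation tests.

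**Figure D4:**
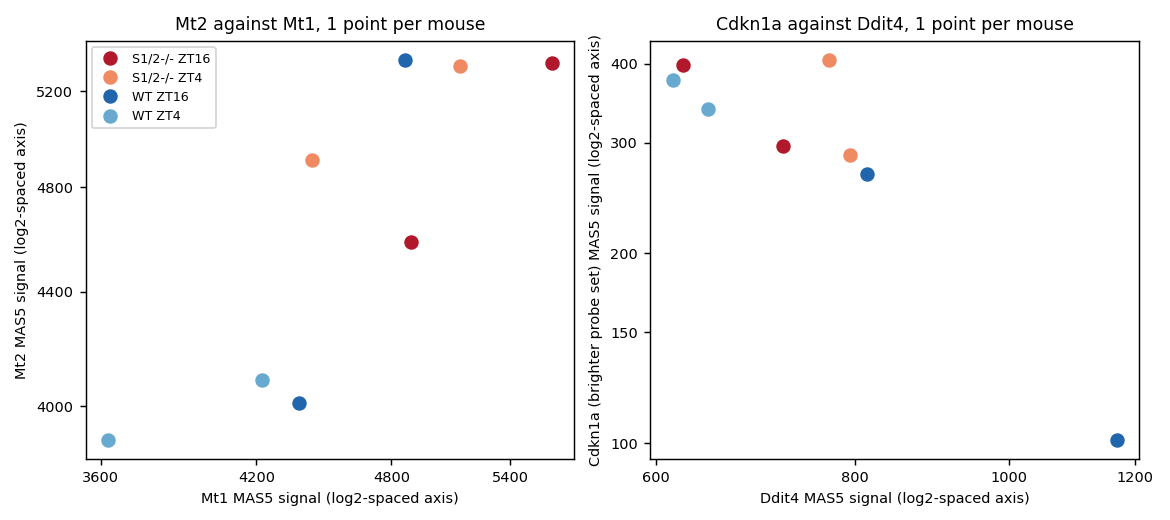
Signal of Mt2 against Mt1 (left) and of the brighter Cdkn1a probe set against Ddit4 (right), both axes log2-spaced, with 1 point per mouse coloured by group. The lowest Mt1 and Mt2 signals, 3625 and 3890, came from the same WT mouse at ZT4, and in the right panel 1 WT mouse at ZT16, with a Ddit4 signal of 1168 and a Cdkn1a signal of 101, lies apart from the other 7.

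The genes whose log2 signal was most like that of each member over the 8 arrays were taken from 6770 to 6772 other probe sets, a choice that finds high values in any data of this size. Mt1 was most like Ctss, a lysosomal protease of microglia, with r = 0.99, and Mt2 was most like Copz1, a subunit of the coatomer, with r = 0.97. Mt3 was most like Polr2a, the large subunit of RNA polymerase II, with r = 0.97. Sgk1 had its highest r, 0.92, with Znrf2, Fkbp5 with Polrmt (0.98), Tsc22d3 with Riok3 (0.97), Ddit4 with Atp5mpl (0.97) and the brighter Cdkn1a probe set with Dlgap4 (0.99). No member was among the 3 nearest of another.

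The wider pathways around the members were described from 6 lists. Of the other glucocorticoid-responsive genes, 26 of 38 were tested. Of these, 1 was called, Dusp1, a phosphatase of MAP kinases, which rose in WT mice. Its signals were 1149 and 1082 in S1/2-/- mice at ZT16, 1616 and 1009 in S1/2-/- mice at ZT4, 2129 and 2141 in WT mice at ZT16 and 683 and 662 in WT mice at ZT4. In WT mice the log2 fold change was 1.67 ± 0.19 (SE, limma adjusted p = 0.0379), with 1.64 to 1.69 over the 16 alternatives run. The call was lost without WT ZT4 replicate 1 (adjusted p = 0.239) or 2 (0.135), WT ZT16 replicate 2 (0.152), S1/2-/- ZT16 replicate 1 (0.0773) or 2 (0.0941), without the filter (0.101), without the intensity trend (0.243) and in ordinary ANOVA (0.607). The difference of its time changes was -1.86, with an adjusted p of 0.295. The median log2 fold change of the 26 between the times was 0.04 in S1/2-/- mice and 0.05 in WT mice. Per1, a clock repressor and glucocorticoid target, was higher at ZT16 in both genotypes, by 0.74 ± 0.25 in S1/2-/- mice and 0.62 ± 0.25 in WT mice, and was not called.

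In the list of glucocorticoid receptor machinery, 12 of 18 genes were tested and 0 were called in any comparison. The receptor itself, Nr3c1, had signals of 281 and 223 in S1/2-/- mice at ZT16, 218 and 253 in S1/2-/- mice at ZT4, 209 and 105 in WT mice at ZT16 and 191 and 211 in WT mice at ZT4. Its lowest signal came from the WT mouse at ZT16 with the highest Ddit4 signal and the lowest signal of the brighter Cdkn1a probe set. Crhr1, a receptor of corticotropin-releasing hormone, had 609 and 652 in S1/2-/- mice at ZT16 and 609 and 748 in S1/2-/- mice at ZT4, against 448 and 418 in WT mice at ZT16 and 449 and 480 in WT mice at ZT4. All 4 S1/2-/- mice were above all 4 WT mice. The averaged log2 difference was 0.54 ± 0.12 (SE), with an adjusted p of 0.116 in limma.

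None of the genes tested in the other lists was called in any of the 7 comparisons. These were 18 of 25 genes of zinc and metal handling, 13 of 22 of the mTOR pathway around Ddit4, 19 of 23 of the p53 pathway and cell cycle around Cdkn1a, and 10 of 18 substrates and relatives of SGK. Among the 19 p53 pathway and cell cycle genes, 0 had an unadjusted p under 0.05 between the times in S1/2-/- mice and 3 did in WT mice, against 7.31% of all tested probe sets in S1/2-/- mice and 7.61% in WT mice. The 3 were Gadd45a (0.75), Btg2 (0.51) and Gadd45g (0.71), all with higher values at ZT16, and these counts do not test a difference between the genotypes. The p53 list's median time change was -0.10 in S1/2-/- mice and 0.12 in WT mice. Among zinc handling genes, Slc30a3, which loads zinc into synaptic vesicles, differed by -0.28 ± 0.11 (SE) between ZT16 and ZT4 in WT mice, with an adjusted p of 0.625 in limma. In the list of metal handling, Fth1, the heavy chain of ferritin, was lower in S1/2-/- than in WT mice by -0.20 ± 0.05 on average over the times, with an adjusted p of 0.174.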

How the data were processed

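The authors deposited linear MAS5 signal intensities from 8 Affymetrix arrays. Each array had a 2% trimmed mean of 500, and none of the sources used here gave the software version. The labels name Trizol extraction, while the study's methods name column purification and 1 round of amplification. Values below 1 (64 of them) were set to 1 and log2 was taken. Control probe sets (66 of 12488) were dropped, and the 40th percentile of mean log2 signal (6.79) left 7453 to test. Of the other probe sets, 10833 had 1 symbol, 396 several and 1193 none. Limma 3.58.1 (R 4.3.3, intensity trend, 4 residual and 6.02 prior degrees of freedom) fitted 4 group means, and the fit was tested on simulated data. A call needed a fold over 1.5 and an adjusted p under 0.05. Tsc22d3 was fitted without the filter. Correlations used exact permutation tests, two-sided. Nothing in the labels gives litters or extraction batches. The limma p-values set each difference against the spread between these mice, an estimate that draws partly on the other probe sets. The alternatives were filters, normalization, pseudocount, variance model, ANOVA, replicate block and leaving out each array. Named genes were the members, up to 3 genes per list and comparison by moderated t, and the 3 genes most like each member. Members and lists were chosen with earlier results of these data known. The number of arrays limits precision. Promoter sequences came from RefSeq (GRCm38.p6).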

Additional observations from a re-analysis of the deposited data

Results flagged for a closer look

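The time change of Ddit4 was opposite in the genotypes. Both S1/2-/- mice at ZT16 were below both at ZT4, and both WT mice at ZT16 were above both at ZT4. Different mice were measured at each time. The difference of the time changes was -0.85 on the log2 scale. The genotype difference was likewise opposite at the 2 times, S1/2-/- mice being below WT mice at ZT16 and above them at ZT4, which is the same -0.85. In limma this difference had an adjusted p of 0.706. With 2 mice in each group, 36% of all tested probe sets were apart between the times in WT mice and 41.4% in S1/2-/- mice. Between genotypes, 42% were apart at ZT16 and 39.4% at ZT4.

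For Mt3, both S1/2-/- mice were above both WT mice at ZT16 and below both at ZT4. The genotype difference at ZT16 minus that at ZT4 was 0.47, with an adjusted p of 0.634 in limma. With 2 mice in each group, 42% of all tested probe sets were apart between genotypes at ZT16 and 39.4% at ZT4.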

How the results depend on the processing

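The count of members called was 0 under a pseudocount of 16, ordinary ANOVA, median centring, quantile normalization, a 60th percentile filter, no filter and no intensity trend. With unadjusted p in place of adjusted p it was 2 in WT mice between the times, 1 in S1/2-/- mice, 1 for the difference of the time changes and 1 between genotypes at ZT16. The share of all tested probe sets passing this rule, fold cut included, is not given here, so these member counts lack their own background. Without the fold cut, 7.61%, 7.31%, 5.69% and 10.9% of all had an unadjusted limma p under 0.05 in these comparisons. The fold cut can only lower these shares. Leaving out 1 array each gave 0 to 2 calls in WT mice between the times and 0 to 2 between genotypes at ZT16, the 2 being Ddit4 and the brighter Cdkn1a probe set (Cdkn1a-a) without WT ZT16 replicate 1. Of all tested probe sets, 1, 1 and 19 were called in WT mice between the times, between genotypes at ZT16 and between genotypes averaged over times. The 60th percentile filter gave 4, 6 and 22, median centring 5, 1 and 11, no intensity trend 0, 0 and 0, and leaving out 1 array 0 to 100, 0 to 154 and 1 to 88, each highest without WT ZT16 replicate 1. At ZT4 the count was 7, with 0 to 14 over these settings. Same-numbered mice did not deviate together (r = -0.00135 to 0.0982), and the replicate block gave 0 member calls and 10, 0 and 13 calls of all probe sets.

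Some signs turned. Quantile normalization gave -0.00458 for Mt3 in WT mice and -0.00118 for Cdkn1a-a in S1/2-/- mice between times, and -0.0346 for Cdkn1a-b, the dimmer probe set, between genotypes at ZT4. Median centring gave -0.0343 and -0.0240 for these Cdkn1a values, -0.0256 for Fkbp5 and -0.00715 for Mt2 between genotypes at ZT16.

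Ranges over left-out arrays crossed 0 as follows. Between times in S1/2-/- mice they were -0.25 to 0.53 for Cdkn1a-b, -0.24 to 0.26 for Cdkn1a-a, -0.155 to 0.0594 for Mt2 and -0.39 to 0.21 for Sgk1, and in WT mice -0.0175 to 0.0309 for Mt3. Between genotypes at ZT16 they were -0.68 to 0.10 for Cdkn1a-b, -0.0799 to 0.233 for Fkbp5, -0.11 to 0.30 for Mt2 and -0.47 to 0.13 for Sgk1. At ZT4 they were -0.34 to 0.36 for Cdkn1a-b, -0.32 to 0.18 for Cdkn1a-a and -0.57 to 0.22 for Fkbp5. For the difference of the time changes they were -0.690 to 0.0896 for Cdkn1a-b, -0.14 to 0.65 for Fkbp5 and -0.212 to 0.00812 for Mt1.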
